A study of Caenorhabditis elegans with 6 samples.

Results

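The insulin-like peptide genes of C. elegans were taken from the deposited table by name, as every gene called ins with a number, plus daf-28. They came to 40 of the 46936 genes listed. All libraries were made from whole N2 (wild-type) animals that were plated as L1 larvae, fed E. coli OP50 at 20 °C, moved at the L4 stage to plates with 5-fluorouracil, which blocks the production of progeny, and frozen on day 2 of adulthood. In 3 biological replicates the plates carried MProPow2, a protein powder made from milk that contains fat globule membrane and was spread on the plates in water, and in 3 control replicates they carried water alone. The animals of a replicate were pooled and sequenced whole, so a change in the number of cells that express a gene and a change in its RNA per cell cannot be told apart.

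Insulin-like peptides are small secreted proteins that are cut from precursors and released from neurons, intestine and other tissues. In C. elegans they act on DAF-2, the receptor that resembles those for insulin and IGF-1. Agonists of DAF-2 drive a kinase cascade that keeps the transcription factor DAF-16/FOXO out of the nucleus, antagonists do the opposite, and through this balance the pathway governs dauer entry, fat storage, stress resistance and lifespan. Several of the genes are expressed in only a few sensory neurons, and in whole-animal RNA such genes have few reads.

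The 6 libraries held between 28859395 and 37501098 counts. Reads were found for 39 of the 40 insulin-like peptide genes, and for 26 of them in all 6 libraries. The exception was ins-38, which the RefSeq gene table lists as a pseudogene. The filter on low counts kept 17 of the genes among the 14534 tested and left out 23. The kept genes had a median of 25.0 reads per library, against 404.0 over all genes tested, and their median standard error on the log2 scale was 0.36, against 0.15. Differences in this family were therefore measured less precisely than those of most genes.

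One gene of the 17 was called. With MProPow2, ins-19 (identifier 3565612) was about 5 times as high as in control animals, and none of the other 16 passed the threshold of adjusted p in either direction. Calls rest on the quasi-likelihood F test of edgeR, with p-values adjusted by Benjamini-Hochberg over the 14534 genes tested. Over all genes, 1.53% were called higher and 1.47% lower, and a count of 1 among 17 is too small to set the family apart from the table. At an unadjusted p under 0.05, 2 members were higher (ins-19 and ins-37) and 1 was lower (ins-7), beside 9.13% higher and 7.75% lower over all genes. DESeq2 called the same single member. Of the 17, 9 had fold changes above 0 and 8 below, and on the log2 scale their median was 0.005, against -0.013 for all genes tested.

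The values of ins-19 per library, in counts per 1000000 counts of the scaled library (CPM), were 9.71, 10.9 and 14.9 in MProPow2 replicates 1, 2 and 3, against 1.70, 2.35 and 2.67 in control replicates 1, 2 and 3. All 3 MProPow2 libraries lay above all 3 control libraries, and the lowest of them was 3.64 times the highest control library. The mean was 11.8 ± 2.75 CPM in MProPow2 and 2.24 ± 0.49 CPM in control (SD, n = 3 each), a 5.29-fold difference that rests on 1087 reads in MProPow2 and 221 reads in control. On the log2 scale the difference was 2.39 (standard error 0.22, 95% interval 1.90 to 2.89), with an adjusted p of 9.9e-04 in edgeR. Among all genes tested, ins-19 ranked 14 by p, and among those with a positive fold change it ranked 2. By size of its log2 fold change it ranked 23 of the 223 genes called higher, whose median was 1.27. An exact permutation test of its 6 values gave a two-sided p of 0.1, the smallest that 3 against 3 allow. With each library left out in turn, the log2 fold change lay between 2.19 (without MProPow2 replicate 3) and 2.54 (without control replicate 3), and ins-19 was called in each of these fits.

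**Figure D1:**
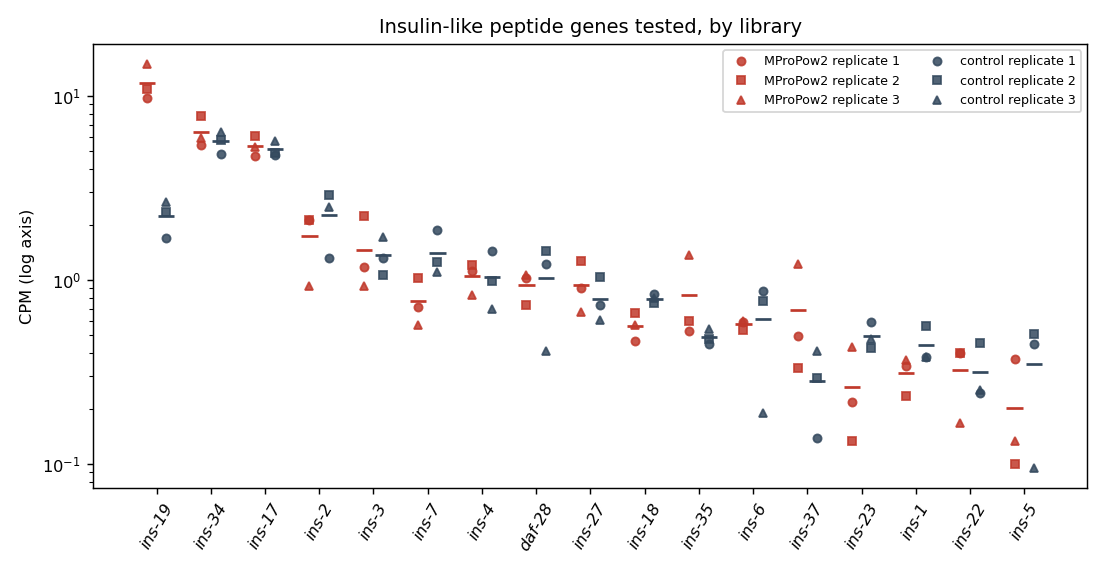
CPM on a log axis of the 17 insulin-like peptide genes tested, in order of their mean over all libraries; each point is 1 library, shapes mark the replicate number, MProPow2 is drawn left of control and short lines are group means. The ins-19 points of MProPow2 lie between 9.71 and 14.9 and those of control between 1.70 and 2.67, while the groups of most other genes overlap.

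In the RefSeq gene table, the nearest genes to ins-19 are the chemoreceptor gene srh-71 and T10D4.6 on one side and another insulin-like peptide gene, ins-31, and the chitinase-like gene chil-24 on the other. No gene in that table overlaps ins-19. Of the 4 neighbours 3 were tested and 0 were called. For srh-71, the CPM values were 1.49, 1.83 and 0.767 in MProPow2 and 1.46, 1.28 and 1.02 in control, with a log2 fold change of 0.12 (standard error 0.32). T10D4.6 had a log2 fold change of -0.10 (standard error 0.15) and chil-24 one of 0.08 (standard error 0.18), with adjusted p of 0.82 and 0.88 from edgeR. The adjacent insulin-like peptide gene, ins-31, had 5, 10 and 3 reads in MProPow2 replicates and 0, 3 and 11 in control replicates, too few to be tested. Among these 5 genes the groups stood apart for ins-19 alone.

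**Figure D2:**
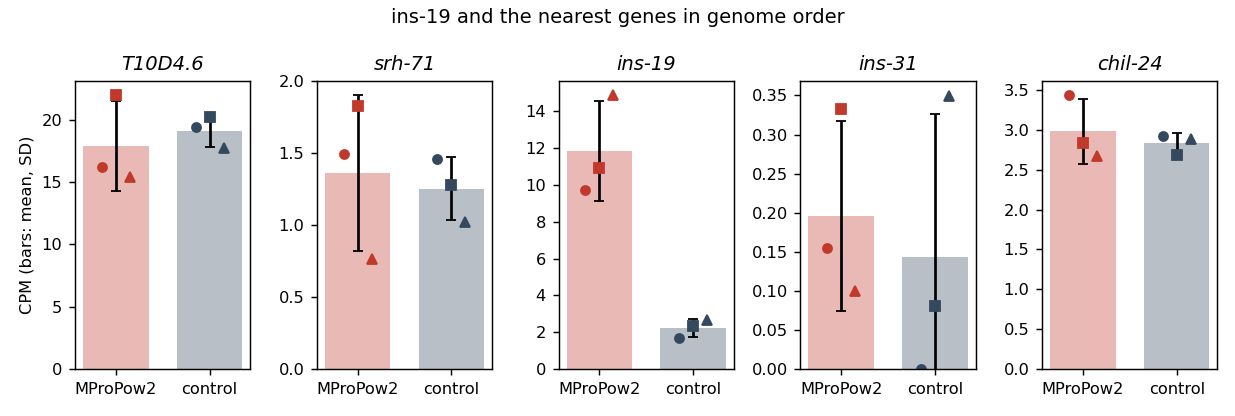
CPM of ins-19 and of the 2 genes nearest to it on each side, in genome order; bars are means, error bars SD over 3 libraries, and points are replicates 1 (circle), 2 (square) and 3 (triangle), with MProPow2 left of control. Each panel has its own axis from 0. The groups stand apart for ins-19 (11.8 CPM in MProPow2 against 2.24 CPM in control on average) and overlap for the other 4 genes.

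Levels of different members were compared per length, with the deposited FPKM values. In MProPow2 animals ins-19 was the highest of the family, with 26.8, 29 and 41.0 FPKM in replicates 1, 2 and 3, whereas in control animals it ranked 3 with 4.63, 6.36 and 7.20 FPKM. The locus of ins-34 overlaps that of nkcc-1, so the level and rank of ins-34 are less certain. In control, the highest gene was ins-34, with 9.38, 11.2 and 12.3 FPKM, followed by ins-17 with 8.47, 8.69 and 9.97 FPKM. The ranges of these 2 genes overlap across control libraries, but ins-34 was above ins-17 in each of the 3 libraries. In MProPow2, the FPKM of ins-34 was 10.6, 14.9 and 11.6, and that of ins-17 was 8.51, 10.5 and 9.39, with the same order in each library. Below them, ins-2 had a mean of 2.93 FPKM in MProPow2 and 3.80 FPKM in control, and ins-7 one of 1.80 FPKM in MProPow2 and 3.29 FPKM in control. This is the order of the means in control. In MProPow2, the mean of ins-27 (3.0 FPKM) was above that of ins-2. Those of ins-3 (2.41 FPKM) and ins-35 (2.15 FPKM) were above that of ins-7. All remaining members had a group mean below that of ins-2 in control.

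Summed over the 40 genes, the FPKM values came to 72.8, 86.0 and 87.0 in MProPow2 replicates and 51.8, 57.5 and 52.8 in control replicates. Without ins-19 the sums were 46.0, 57.0 and 46.0 in MProPow2 and 47.2, 51.1 and 45.6 in control, and the groups then overlapped. The share of ins-19 in the sum was 36.8%, 33.8% and 47.1% in MProPow2 and 8.94%, 11.1% and 13.6% in control. The total of the family was thus higher in MProPow2 through this 1 gene.

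**Figure D3:**
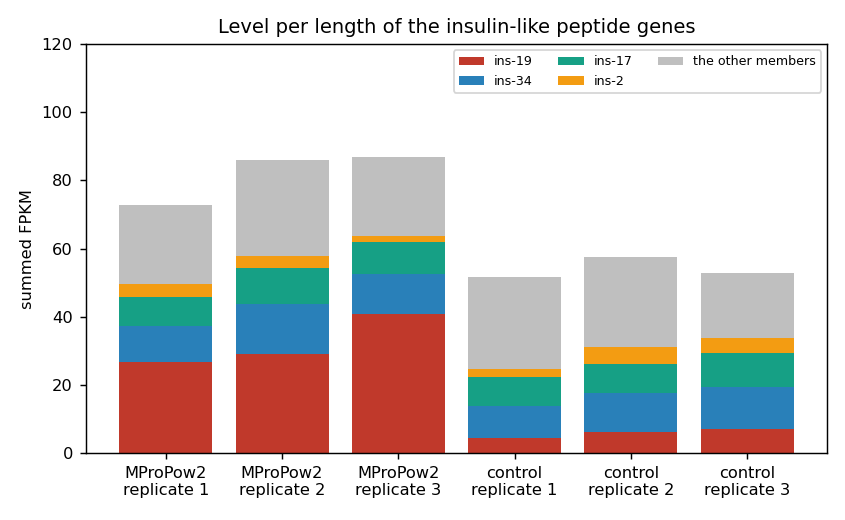
Summed FPKM of the 40 insulin-like peptide genes in each library, MProPow2 left of control, split into ins-19, ins-34, ins-17, ins-2 and the other members. The ins-19 part is 26.8 to 41.0 FPKM in MProPow2 and 4.63 to 7.20 FPKM in control, and the remainder is 46.0 to 57.0 FPKM in MProPow2 and 45.6 to 51.1 FPKM in control.

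Of 5 genes known to act as agonists of DAF-2 (daf-28, ins-3, ins-4, ins-6 and ins-7), 0 were called, and 1 was lower at unadjusted p. It was ins-7 (identifier 191688), an agonist made in intestine and neurons whose own transcription is lowered by active DAF-16. Its CPM was 0.714, 1.03 and 0.567 in MProPow2 and 1.88, 1.25 and 1.11 in control. All 3 MProPow2 libraries were below all 3 control libraries, with 17 to 54 reads in a library. On the log2 scale the difference was -0.87 (standard error 0.31, 95% interval -1.56 to -0.17, unadjusted p = 0.02 and adjusted p = 0.19 in edgeR), and its adjusted p was between 0.089 and 0.52 over 16 alternatives. The difference in ins-7 therefore did not pass the threshold for all genes.

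The agonist daf-28, which is expressed in sensory neurons and keeps larvae out of dauer, had 1.02, 0.733 and 1.07 CPM in MProPow2 and 1.22, 1.44 and 0.413 CPM in control (log2 fold change -0.13, 95% interval -1.04 to 0.78). For ins-6, a sensory neuron agonist that also drives exit from dauer, the values were 0.59, 0.533 and 0.60 CPM in MProPow2 and 0.87, 0.773 and 0.19 CPM in control (log2 fold change -0.09, 95% interval -1.12 to 0.94). The agonist ins-4 had 1.12, 1.20 and 0.834 CPM in MProPow2 and 1.43, 0.987 and 0.698 CPM in control (log2 fold change 0.03, 95% interval -0.66 to 0.71). Control replicate 3 was the lowest of the 6 libraries in these 3 genes and in ins-27 and ins-5, 5 of the 17 in all, and the highest in 0. MProPow2 replicate 3 and control replicate 1 were each the lowest in 4 members, but the highest in 3 and 5. The values of ins-5 were 0.372, 0.0999 and 0.133 CPM in MProPow2 and 0.452, 0.507 and 0.0952 CPM in control. Without control replicate 3 the log2 fold changes of daf-28, ins-6, ins-4 and ins-5 were -0.49, -0.50, -0.18 and -1.21. That of ins-27 was 0.09, and none of the 5 was called. These genes were picked as lowest in that control library, so leaving it out lowers their fold changes by construction. The TGF-beta ligand gene daf-7, which is expressed in the ASI sensory neurons, is named here after its values were seen. It was also lowest in control replicate 3 (0.838, 0.633 and 1.23 CPM in MProPow2, 1.43, 1.04 and 0.317 CPM in control). It comes from the list of 10 genes of other signals, of which pdf-1 was also lowest there (5.17 CPM). The others on that list, daf-22, tph-1, tdc-1, tbh-1, nlp-12, flp-21, npr-1 and scd-2, were each lowest in another library. Of all libraries, nlp-12 was highest in control replicate 3 (4.79 CPM). The ciliated sensory neuron markers were divided. The channel genes tax-4 and tax-2 and the cilium genes daf-10 and dyf-1 were also lowest in control replicate 3, at 0.381, 0.0635, 0.667 and 1.62 CPM. The others on the list, osm-6, osm-5, che-2, che-13, bbs-8 and daf-19, were each lowest in another library. Among the control libraries, osm-5 and che-2 were highest in replicate 3, at 0.889 and 0.286 CPM. The part of sensory neurons in the low values of the peptide genes there was not tested.

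The fifth agonist, ins-3, had 1.18, 2.23 and 0.934 CPM in MProPow2 and 1.32, 1.07 and 1.71 CPM in control (log2 fold change 0.09, 95% interval -0.68 to 0.85). Its highest library was MProPow2 replicate 2, and without it the log2 fold change was -0.36. The genes ins-2, ins-3, ins-4, ins-5 and ins-6 lie next to each other in the RefSeq gene table, the longest of 8 such runs of adjacent members. For ins-2, the CPM values were 2.11, 2.13 and 0.934 in MProPow2 and 1.32, 2.91 and 2.51 in control, a log2 fold change of -0.39 (95% interval -1.18 to 0.41). All 5 genes of the run were tested and 0 were called, with fold changes of both signs.

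Of the 3 genes taken as antagonists of DAF-2 (ins-1, ins-17 and ins-18), 0 were called at adjusted p and 0 at unadjusted p. The most abundant of them was ins-17 (identifier 175585), whose values were 4.75, 6.06 and 5.27 CPM in MProPow2 and 4.80, 4.93 and 5.68 CPM in control. With 138 to 185 reads per library, its log2 fold change of 0.06 had an interval of -0.30 to 0.42, among the narrowest of the family. The gene ins-18 had 0.465, 0.666 and 0.567 CPM in MProPow2 and 0.835, 0.747 and 0.794 CPM in control, and ins-1, which acts in salt learning, had 0.341, 0.233 and 0.367 CPM in MProPow2 and 0.383, 0.56 and 0.381 CPM in control. In both, the MProPow2 libraries all lay below the control libraries, but the log2 fold changes of -0.48 (95% interval -1.10 to 0.14) and -0.50 (95% interval -1.32 to 0.32) had adjusted p of 0.43 and 0.56 in edgeR. In all, the groups did not overlap in 1 tested member with higher values (ins-19) and in 3 with lower values (ins-7, ins-18 and ins-1), where 11.1% of all genes tested did so with higher and 12.3% with lower values.

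The differences of ins-37 and ins-35 rested largely on 1 library. For ins-37 (identifier 191693), the values were 0.497, 0.333 and 1.23 CPM in MProPow2 and 0.139, 0.293 and 0.413 CPM in control, on 4 to 37 reads per library. On the log2 scale it differed by 1.26 (standard error 0.55, unadjusted p = 0.047 and adjusted p = 0.29 in edgeR), and 0.54 without MProPow2 replicate 3. The gene ins-35, which is expressed in the intestine, had 0.528, 0.60 and 1.37 CPM in MProPow2 and 0.452, 0.48 and 0.54 CPM in control. Its log2 fold change was 0.75 (95% interval -0.15 to 1.65), and 0.19 without MProPow2 replicate 3. That library was the highest of the 6 in both genes, and also in ins-19, whose call held without it.

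The other 4 tested members were not called, and their intervals held 0. The CPM of ins-34 (identifier 191692) was 5.40, 7.79 and 5.94 in MProPow2 and 4.84, 5.79 and 6.38 in control, with a log2 fold change of 0.17 (95% interval -0.24 to 0.58). Its locus overlaps that of nkcc-1, which had 15141 reads in all. The overlap is between whole loci, and whether exons are shared was not checked. Since the strand setting of the counting is not given either, which gene any reads there belong to is uncertain. For ins-27 the values were 0.90, 1.27 and 0.667 CPM in MProPow2 and 0.731, 1.04 and 0.603 CPM in control (log2 fold change 0.24, 95% interval -0.49 to 0.97). The gene ins-22, whose tagged peptide is a common marker of dense-core vesicles, had 0.403, 0.40 and 0.167 CPM in MProPow2 and 0.244, 0.453 and 0.254 CPM in control (log2 fold change 0.01, 95% interval -1.04 to 1.05). Its neighbour ins-23 had 0.217, 0.133 and 0.434 CPM in MProPow2 and 0.591, 0.427 and 0.476 CPM in control, where only MProPow2 replicate 3 reached into the control range. The log2 fold change of ins-23 was -0.91 (95% interval -1.90 to 0.07), and -1.47 without MProPow2 replicate 3 (adjusted p = 0.099 in edgeR). Leaving out that library widens the difference by construction. With any other library left out it was between -1.02 and -0.61, with adjusted p of 0.46 to 0.67 in edgeR.

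**Figure D4:**
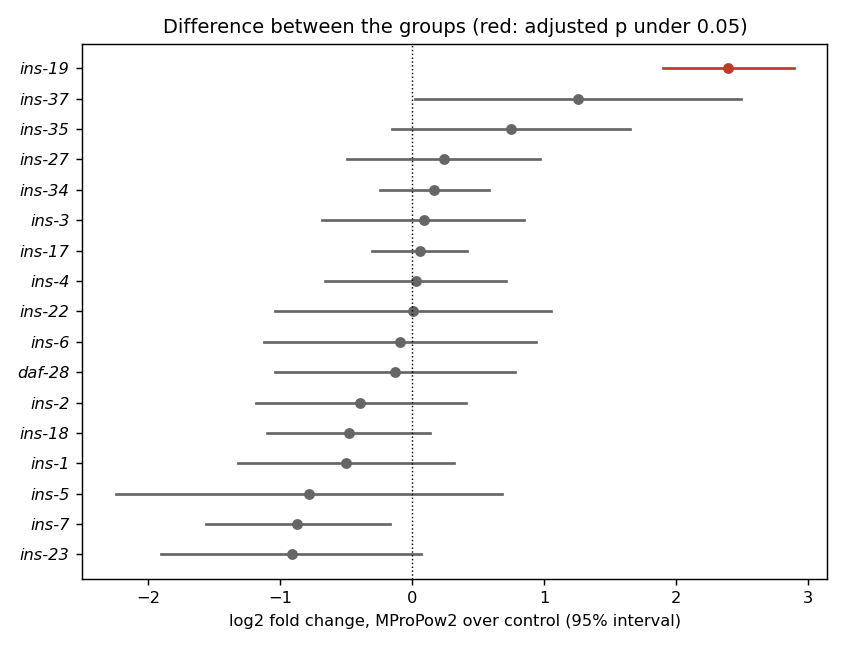
Log2 fold change of MProPow2 over control with its 95% interval from edgeR for the 17 genes tested, largest at the top; the dotted line is 0 and red marks an adjusted p under 0.05. The intervals of 14 genes hold 0, those of ins-19 (1.90 to 2.89) and ins-37 (0.02 to 2.49) lie above it and that of ins-7 (-1.56 to -0.17) lies below it.

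The 23 members left out by the filter had at most 16 reads in any library and at most 49 in total. Together they had 288 reads in MProPow2 and 228 in control, and their summed level was 2.85, 3.83 and 2.70 CPM in MProPow2 and 2.64, 2.61 and 1.71 CPM in control. The lowest library was again control replicate 3. More reads were counted in MProPow2 for 17 of them, more in control for 5, and neither for ins-38. No such count was made over the other genes below the filter, so whether 17 against 5 is unusual for genes this low is not known. With no filter the median log2 fold change of all 26609 genes, those tested included, was also above 0. It was 0.06, against -0.013 over the genes tested. Those with at least 10 reads in total were ins-10, ins-11, ins-12, ins-16, ins-24, ins-26, ins-28, ins-29, ins-30, ins-31, ins-32, ins-33 and ins-36. The largest differences in reads were in ins-36, with 14, 13 and 5 reads in MProPow2 and 3, 7 and 5 in control, and in ins-24, with 6, 3 and 5 reads in MProPow2 and 6, 11 and 11 in control. The gene ins-33, known to promote the cell cycle of larval germ cells, had 3, 3 and 15 reads in MProPow2 and 12, 1 and 4 in control, while ins-11, an intestinal peptide linked to the response to P. aeruginosa, had 7, 6 and 3 reads in MProPow2 and 2, 4 and 3 in control. The loci of ins-10 and ins-13 overlap the far more abundant vps-39 and acdh-2, and that of ins-36 overlaps Y53H1A.7. Any reads where the loci overlap may belong to either gene.

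Among the remaining 10, ins-20 was listed with 0 reads in each MProPow2 library and with 4, 1 and 1 reads in control replicates 1, 2 and 3. A count of 0 allows a level of up to 0.0931 to 0.10 CPM in these MProPow2 libraries, counting error alone, and control replicates 2 and 3 are under their own limits of 0.08 and 0.0952 CPM, while control replicate 1, at 0.139 CPM, is above its limit of 0.104 CPM. Only the value of control replicate 1 thus lay above the MProPow2 limits. It rests on 4 reads with counting error of their own, so no difference is established. ins-13 and ins-21 had 0 reads in all control libraries and 2 and 1 reads in MProPow2. When edgeR was fitted with no filter, 22 of the 23 could be fitted, 1 (ins-20) was at an unadjusted p under 0.05 and 0 were called. The smallest adjusted p in that edgeR fit was 0.30. DESeq2 on every gene with at least 1 read also called none of them.

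**Figure D5:**
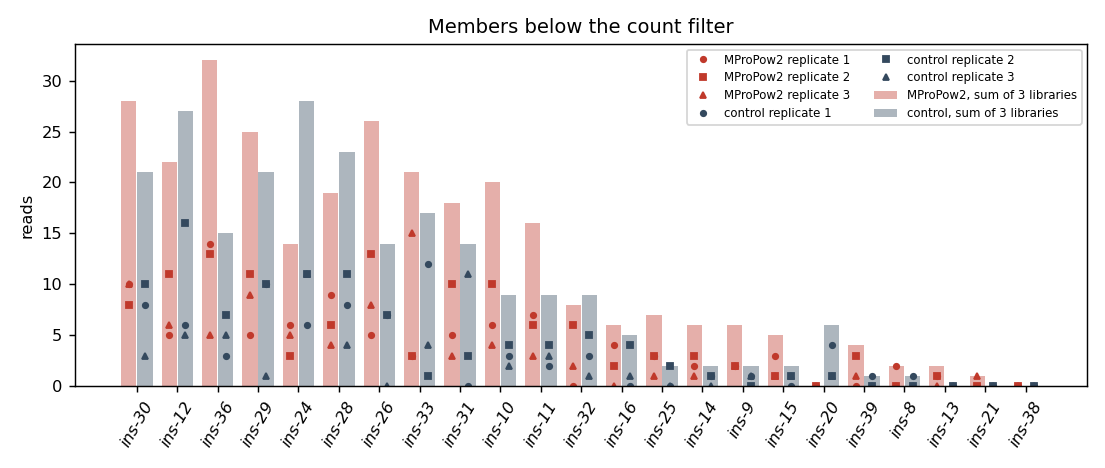
Reads of the 23 members below the count filter; bars are sums over the 3 libraries of a group, points are single libraries, and MProPow2 is drawn left of control. No point exceeds 16 reads.

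The other genes of the pathway showed few calls. Of 11 genes of the DAF-2 signalling core, all were tested and 0 were called, and their median fold change was -0.031 on the log2 scale. The receptor gene daf-2 was at 116, 114 and 115 CPM in MProPow2 and at 127, 122 and 89.1 CPM in control (log2 fold change 0.03, 95% interval -0.25 to 0.31). The transcription factor gene daf-16 had 106 to 117 CPM in MProPow2 and 139, 141 and 117 CPM in control replicates 1, 2 and 3, a log2 fold change of -0.26 (95% interval -0.47 to -0.05, unadjusted p = 0.021 and adjusted p = 0.20 in edgeR). Control replicate 3 lay at the top of the MProPow2 range, and daf-16 was not called. The kinase gene sgk-1 was the other member of the core at an unadjusted p under 0.05 (log2 fold change -0.34), both of them lower.

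Of 14 genes for the cutting of peptide precursors and the release of dense-core vesicles, 0 were called, with a median of -0.029. At unadjusted p, 2 were lower, the convertase gene aex-5 (log2 fold change -0.50, adjusted p = 0.099 in edgeR) and the carboxypeptidase gene egl-21 (log2 fold change -0.37, adjusted p = 0.13 in edgeR). In some alternatives aex-5 was called, namely with DESeq2, with DESeq2 on every gene with at least 1 read, with no filter and without MProPow2 replicate 2. Of 10 genes that DAF-16 is known to raise, 9 were tested, 1 was called higher and 0 lower, and the median was 0.078. The gene called was mtl-1, a metallothionein, at 3.10, 5.80 and 8.57 CPM in MProPow2 and 1.46, 1.65 and 1.78 CPM in control. It was higher by 1.83 on the log2 scale (standard error 0.33, adjusted p = 0.023 in edgeR), but it was not called without control replicate 1, 2 or 3 (adjusted p = 0.057, 0.095 and 0.094) or with limma (0.093 to 0.19). At unadjusted p, ftn-1, a ferritin gene, was also higher (log2 fold change 1.20), and 3 genes were lower, namely the small heat shock protein gene sip-1 (-0.33), lea-1 (-0.48) and the glyoxylate cycle gene icl-1 (-0.71), with adjusted p of 0.082, 0.21, 0.18 and 0.26 in edgeR. These 3 are the most abundant of the list, whose summed level was 1080 to 1230 CPM in MProPow2 and 1510 to 1610 CPM in control, without overlap. The best-known target, sod-3, was not called. Of 10 genes of other signals, 9 were tested and 0 called, with a median of -0.099, and with 2 lower at unadjusted p (daf-22 and nlp-12). Some of these genes were called in alternatives. With no filter these were lea-1, icl-1, ftn-1, daf-22 and nlp-12. With DESeq2 on every gene with at least 1 read they were lea-1 and daf-22. Without MProPow2 replicate 3, sip-1, icl-1, ftn-1 and nlp-12 were called, and without MProPow2 replicate 2, daf-22 was.

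Marker genes of the tissues that a whole animal holds were read beside these values. Of 10 neuron markers 0 were called, and their summed level was 203 to 237 CPM in MProPow2 and 231 to 233 CPM in control. For ciliated sensory neurons 8 of 10 markers were tested and 0 called, and the sum was 23.1 to 26.6 CPM in MProPow2 and 23.2 to 25.4 CPM in control. Most of that sum was daf-19, at 16 to 18 CPM in MProPow2 and 17.6 to 18.9 CPM in control (log2 fold change -0.13), whereas the other 7 tested had log2 fold changes above 0, and the median of the 8 was 0.31. Likewise snb-1 made up most of the neuron sum. Intestinal markers, of which 9 were tested and 0 called, summed to 995 to 1380 CPM in MProPow2 and 1500 to 1520 CPM in control, with 6 of the 9 lower at unadjusted p. Body wall muscle markers summed to 1020 to 1110 CPM in MProPow2 and 1330 to 1380 CPM in control, and 2 of 8 were called lower (mup-2 and lev-11). The sums overlapped between the groups for hypodermis (97.6 to 172 CPM in MProPow2, 162 to 180 CPM in control) and germline (1810 to 2550 CPM in MProPow2, 1930 to 2410 CPM in control). They also overlapped for oocytes (4040 to 5770 CPM in MProPow2, 4160 to 5530 CPM in control) and embryo (58.4 to 75.9 CPM in MProPow2, 59.5 to 77.5 CPM in control). In each of these lists 0 were called, though only 5 of 8 hypodermis markers and 9 of 10 embryo markers were tested. The intestine and muscle sums of all MProPow2 libraries were below those of all control libraries, opposite to ins-19 and in the direction of ins-7, and their part in either difference was not tested.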

How the data were processed

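RNA-seq was done on 3 MProPow2 and 3 control samples, mapped to groups by their titles. Per the labels and the study's methods, the authors used HISAT2 for mapping and featureCounts for counting reads per gene. The deposited counts are raw, and the deposited FPKM values are those counts times 1 factor per gene and 1 per library. For genome build, annotation and strand setting, nothing is given in the sources read here. Hence no coordinates are printed, and the RefSeq table (WBcel235) served only for gene classes and for which genes are neighbours.

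Counts were tested with edgeR 4.0.16 (R 4.3.3), using filterByExpr with a minimum count of 10, TMM scaling and a quasi-likelihood F test without covariates, at an adjusted p of 0.05. CPM uses TMM-scaled library sizes. Standard errors are the log2 fold change over the square root of F. The common biological coefficient of variation was 13.9%. Alternatives were RLE or upper-quartile scaling, other filters, DESeq2 1.42.0, a replicate block, each library left out, and limma 3.58.1 on log2(FPKM + 1) or log2(FPKM + 0.1), with a minimum mean FPKM of 0.1 or none. DESeq2 on every gene with at least 1 read, and the family median without ins-19, were added after seeing the data. The scripts were tested on simulated data.

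The genes named are every member that passed the filter, other members with 0 reads or at least 10 reads in total, called pathway genes, daf-2 and daf-16. Any further gene was named after its values were seen. Members and lists (agonists, antagonists, signalling core, processing and release, DAF-16 targets, other signals, tissue markers) were chosen with earlier results of these data known. Planned comparisons of promoter motifs and protein sequences are not analysed here. Intervals and limits cover counting error or replicate spread only, and any 2 replicates differed by more than sampling noise (chi-square per degree of freedom at least 14.7).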

Additional observations from a re-analysis of the deposited data

How the results depend on the processing

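The single insulin-like peptide gene called, ins-19, was called higher in all 16 alternatives, with log2 fold changes from 2.19 to 2.54 and adjusted p of at most 0.031, and no other member was called in any of them. The counts over all genes moved more. Against 223 higher and 214 lower, there were 684 and 542 with no filter, 386 and 356 with DESeq2, 341 and 388 with DESeq2 on every gene with at least 1 read, 90 and 102 with a replicate block, 37 and 60 with limma on log2(FPKM + 1), 66 and 82 on log2(FPKM + 0.1), 12 and 33 on log2(FPKM + 1) without filter, and 131 lower with upper-quartile scaling. Leaving out single libraries gave 17 (without control replicate 2) to 627 (without MProPow2 replicate 3) higher and, in the same fits, 55 to 417 lower. The median log2 fold change of the members tested was 0.33 with no filter and 0.30 with DESeq2 on every gene with at least 1 read, where 39 members were tested and the medians of all genes were 0.06 and 0.065; with single libraries left out it ran from -0.15 to 0.17, and without ins-19 it was -0.04.

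Members near 0 changed sign without being called. Over the fits that left out a library, ins-34 ran from -0.0029 to 0.27, ins-17 from -0.04 to 0.15, ins-3 from -0.36 to 0.32, daf-28 from -0.49 to 0.23, ins-4 from -0.18 to 0.30, ins-27 from -0.02 to 0.50, ins-6 from -0.50 to 0.21, ins-22 from -0.19 to 0.38 and daf-2 from -0.10 to 0.12. With limma on log2(FPKM + 0.1), daf-28 was 0.04, ins-6 0.14 and ins-22 -0.0035, and on log2(FPKM + 1), with or without filter, ins-6 was 0.02. Of the 4 pathway lists, 1 gene was called, against 7 with no filter, 2 with DESeq2, 4 with DESeq2 on every gene with at least 1 read, 0 with each limma fit and 0 (without any 1 control library) to 5 (without MProPow2 replicate 3) when single libraries were left out. The cause of these shifts was not tested.

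The deviations of same-numbered libraries correlated at -0.048, 0.096 and -0.116, within the -0.20 to 0.189 of differently numbered ones. The replicate numbers thus gave no sign of pairing, but with 3 libraries per group these correlations cannot show how the samples were handled. The replicate block gave 1 member called higher and 0 lower, and turned ins-6 to 0.0045. Reads limit the family, as 11 members had at least 10 counts in every library.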
